A study of Mus musculus with 9 samples.

Results

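The genes described here are 39 named genes of fatty acid uptake, activation, storage and mitochondrial β-oxidation. They were chosen by name, and all 39 were among the 23747 genes of the tables. Their expression was followed in mouse hearts by sequencing the RNA of single nuclei (sNuc-seq). Each nucleus received a barcode in a droplet, and each captured transcript a unique molecular identifier (UMI). All 9 mice were C57BL/6, aged 8 weeks, and were treated by gavage for 7 days beforehand. The 3 sham mice received vehicle, and a needle was passed without ligation. The 3 I/R mice received vehicle, then 30 min of ligation of the left anterior descending coronary artery and 24 h of reperfusion. The 3 SBP mice received Shexiang Baoxin Pill, a traditional Chinese medicine that the labels call MUSKARDIA, before the same ischemia and reperfusion. Myocardium below the ligation was taken, so the samples do not stand for the whole heart. The comparisons ask how I/R altered these genes in each cell type and whether SBP pre-treatment shifted them. In the study's quality control, every sham library had fewer low-quality reads than every I/R and SBP library. Before filtering, its share of G and C bases was also lower. Whatever made the reads differ cannot be told apart from the group in any comparison with sham.

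The adult heart draws most of its energy from fatty acids. Lipoprotein lipase on the capillary wall frees them from circulating lipoproteins, CD36 and fatty acid transport proteins carry them across endothelium and sarcolemma, and they are bound in the cytosol by fatty acid-binding proteins and activated to acyl-CoA. The carnitine shuttle, which malonyl-CoA holds back, brings acyl-CoA into mitochondria for β-oxidation, and PPAR and ERR nuclear receptors with the coactivator PGC-1α drive transcription of these genes.

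The 9 samples held 49171 nuclei (4576 to 6418 per sample) and 135423853 UMIs (10329520 to 18205985 per sample), with a median of 1540 to 2031 UMIs per nucleus. UMIs were summed per mouse and cell type and scaled to a common library size (CPM), so every level below is nuclear RNA relative to the other nuclear RNA of that type. A gene was called where the adjusted p of limma, a linear model fitted to all genes, was at most 0.05 and the log2 fold change was beyond 0.25 in size. A log2 fold change is given ± SE and rests on 3 mice per group, except where a mouse is left out by choice or for having under 20 nuclei. Clusters were named from marker genes as cardiomyocyte-like, endothelial-like, fibroblast-like and myeloid-like, shortened below to the type. Across the 4 types, the defining adipocyte markers summed to between 0 and 7.71 CPM.

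Several clusters were split between the groups. Cardiomyocyte cluster 4, which has Mhrt and Ces1d among its leading genes, held 82.9% to 93.3% of sham cardiomyocytes and 78.2% of those of I/R 1, but 0.212% to 4.34% in I/R 2 and I/R 3 and 0.958% to 17.2% in SBP mice. I/R 1 thus stood apart from the other I/R mice. Cardiomyocyte results are given with and without it, a choice made after seeing the data. Among myeloid nuclei, cluster 5 (leading genes Cd163, F13a1 and Mrc1) held 89.0% to 93.7% in sham and 15.2% to 49.2% in the other mice, and cluster 3 (Gpnmb and Arg1) held 2.76% to 6.80% in sham and 44.9% to 78.7% in the others. Fibroblast cluster 7 (Tnc and Postn) held 0.135% to 0.253% in sham and 9.0% to 33.7% in the others. Of the 49171 nuclei, 580 carried a barcode also seen in another sample.

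The members were mainly cardiomyocyte genes. Of the 39, 33 had their highest mean level in cardiomyocytes among the 4 types, and 23 were highest there in all 9 mice. Of the others, Fabp4, Acads and Etfb were highest in endothelial cells, Cpt1a and Ppard in myeloid cells and Angptl4 in fibroblasts. Fabp4, which encodes the fatty acid-binding protein of adipocytes and capillary endothelium, stood out, with an endothelial level at 2471% of the cardiomyocyte level of the same mouse in the median mouse. Cpt1b, the muscle form of the rate-limiting carnitine palmitoyltransferase, was barely captured, with 151 UMIs in all cardiomyocytes. These levels describe the types, with no test, because clusters were made from the same nuclei.

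**Figure D1:**
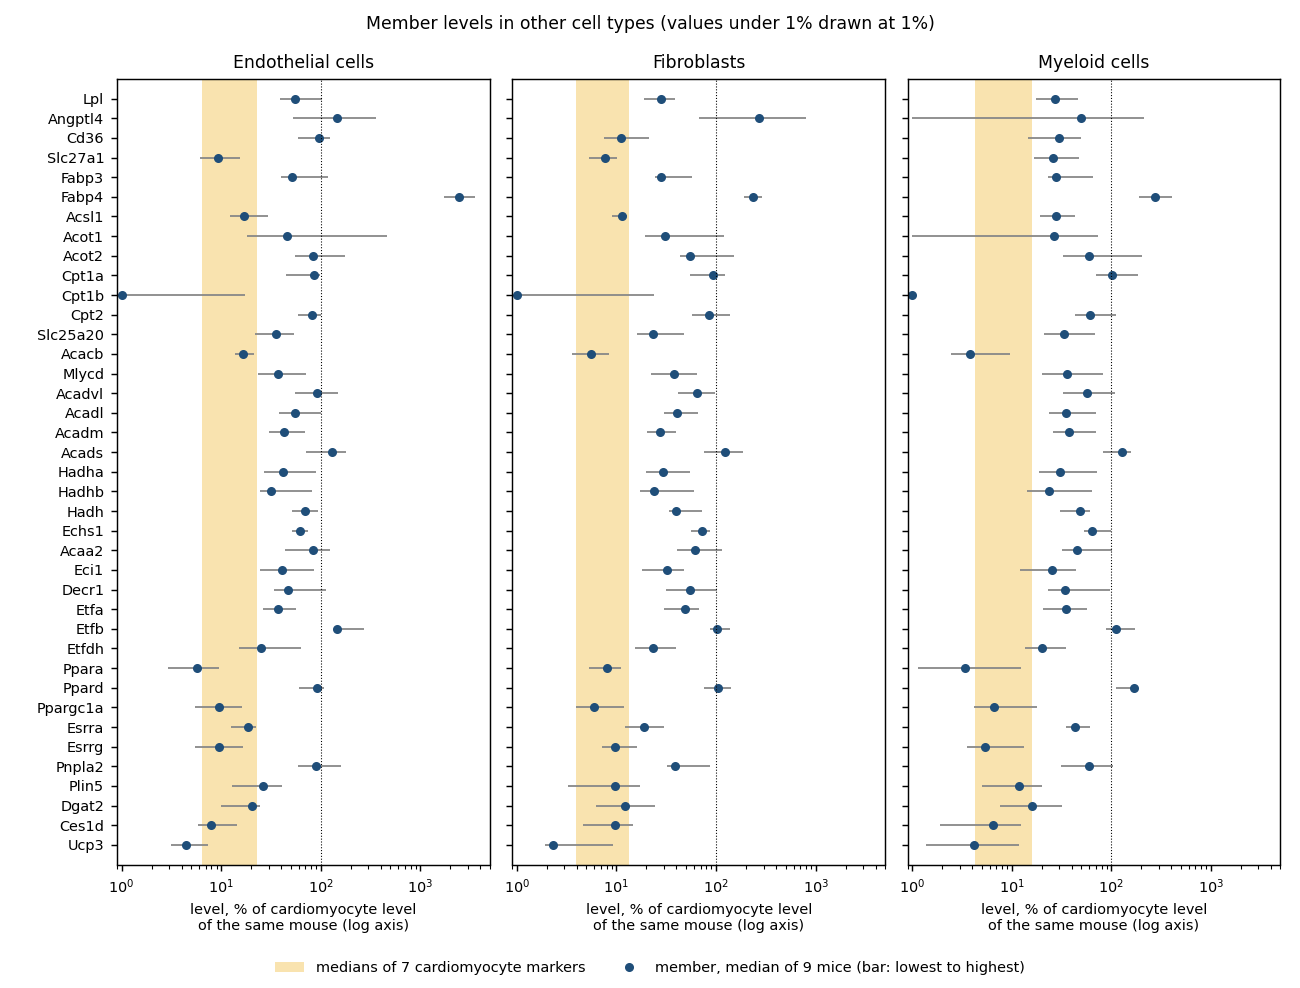
Level of each of the 39 genes in endothelial cells, fibroblasts and myeloid cells as a percentage of the cardiomyocyte level of the same mouse (log axis, values under 1% drawn at 1%). Points are medians of 9 mice, bars run from the lowest to the highest mouse, and the yellow band spans the medians of 7 cardiomyocyte markers, 6.39% to 22.8% in endothelial cells. Fabp4 lies far to the right in endothelial cells, while Cpt1b, Ppara, Esrrg, Ucp3, Ces1d and Dgat2 lie within or below the band.

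Free RNA can put cardiomyocyte transcripts into droplets of other cells, and 7 cardiomyocyte markers (Ttn, Myh6, Tnnt2, Ryr2, Actn2, Pln and Ldb3) were used to gauge it. Their median levels were 6.39% to 22.8% of the cardiomyocyte level in endothelial cells, 3.94% to 13.2% in fibroblasts and 4.27% to 15.9% in myeloid cells. In endothelial cells 11 members lay at or under the highest of these medians, namely Acsl1, Cpt1b, Ppara, Ppargc1a, Esrra, Esrrg, Slc27a1, Acacb, Ucp3, Ces1d and Dgat2. In fibroblasts 12 did, those of the endothelial list without Esrra and with Cd36 and Plin5 added. In myeloid cells 9 did, namely Cpt1b, Ppara, Ppargc1a, Esrrg, Acacb, Ucp3, Ces1d, Plin5 and Dgat2. Levels of these genes outside cardiomyocytes cannot be read as expression by those cells. The cut is a median over the mice, and a member above it can still hold some such RNA. The summed level of the markers differed between groups. Doublets and mixed nuclei were not told apart from free RNA in it, and the endothelial sums include subcluster 2, described below. In what follows, the level of free RNA means the level of these markers, whatever brought them there. Within cardiomyocytes Myh6 itself differed by −1.12 on the log2 scale between I/R and sham, without being called. The 7 markers summed to 7352 to 9027 CPM in sham endothelial cells and 2634 to 4922 CPM in those of I/R and SBP mice, to 4432 to 5545 against 1590 to 2405 CPM in fibroblasts, and to 5797 to 7195 against 1769 to 2818 CPM in myeloid cells. The summed level was therefore lower in every I/R and SBP mouse than in any sham mouse, in each of the 3 types. Whether this reflects less free RNA was not tested.

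Within the endothelium, Cd36, Fabp4 and Lpl were highest in capillary-like nuclei and next in arterial-like nuclei among the named vessel types, and Fabp3 and Angptl4 did not share that order. Cd36 averaged 3186 CPM in capillary-like nuclei, 1820 CPM in arterial-like, 563 CPM in the larger of 2 endocardial-like subclusters and 351 CPM in lymphatic-like nuclei over the 9 mice. Fabp4 averaged 1745 CPM, 854 CPM, 290.0 CPM and 182 CPM in the same order, and Lpl 837 CPM, 469 CPM, 426 CPM and 380.5 CPM. Fabp3 averaged 203 CPM, 190 CPM, 209 CPM and 168 CPM in that order, and Angptl4 24.7 CPM, 11.9 CPM, 9.25 CPM and 16.3 CPM, with some mice at 0. The smaller endocardial-like subcluster, 153 nuclei from 6 mice with 3 to 62 each, averaged 346 CPM for Cd36, 128 CPM for Fabp4 and 278 CPM for Lpl. With so few nuclei in some mice, no order against the lymphatic-like nuclei is drawn. Subcluster 2 matched the capillary markers best, with 3 of 4 detected. It was left unnamed because cardiomyocyte transcripts such as Actc1 and Pgam2 led it, a rule set after seeing these genes. Subcluster 2 held 38.6% to 54.4% of sham endothelial nuclei but 1.89% to 7.6% in I/R and SBP mice. Its means of 3 uptake genes lay above those of capillary-like nuclei, at 3364 CPM for Cd36, 1994 CPM for Fabp4 and 2079 CPM for Lpl, and its mean of each of the 11 β-oxidation genes was above those of the capillary-like, arterial-like, lymphatic-like and larger endocardial-like nuclei, by 1.69 to 3.93 times against capillary-like nuclei (188 CPM against 47.8 CPM for Acadvl). The named capillary-like subcluster held 7.25% to 18.3% in sham and 45.2% to 58.6% in the others. Because subcluster 2 is outside it, these shares do not measure how capillary nuclei changed.

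The members of one mouse tended to lie on the same side of its group. In cardiomyocytes, sham 1 had the lowest value of its group for 30 of 39 members (33.3% of all genes tested) and sham 2 the highest for 27 (38.4%). I/R 1 was lowest for 29 members (37.0%) and I/R 3 highest for 26 (36.8%). In fibroblasts, I/R 3 was highest for 28 of 38 members (36.0% of all genes tested) and SBP 1 for 31 (36.0%), and in endothelial cells I/R 3 was highest for 31 of 38 (37.5%) and SBP 3 lowest for 30 (33.8%). In myeloid cells sham 2 was highest for 22 of 36 (32.8%), I/R 3 for 23 (32.5%) and SBP 1 for 27 (33.9%). Mice of one treatment thus differed from each other across much of the pathway. Members are not independent of each other, and these counts are a description.

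I/R was first compared with sham in cardiomyocytes. Of the 39 members 1 was called, Ces1d, against 0.859% of all 12920 genes, and 8 had an unadjusted p below 0.05 (14.2% of all genes). The median log2 fold change of the members was 0.19, against −0.03 over all genes, with 27 of 39 above 0 (5938 of 12920 over all genes). Ces1d, a carboxylesterase that hydrolyses triglyceride and other esters, fell. Its levels were 194, 215 and 254 CPM in sham, 86.1, 29.6 and 63.2 CPM in I/R and 98.5, 95.5 and 53.3 CPM in SBP mice, and every I/R and SBP value lay below every sham value (log2 fold change −1.99 ± 0.35, limma adjusted p 0.0305). The Ces1d call was lost without sham 1, sham 2, sham 3, I/R 2 or I/R 3. It was also lost with limma-voom, a replicate block, the 6 mice compared and the largest cluster only. Over the alternatives run its adjusted p lay from 0.00459 to 0.154. Ces1d was also among the 10 leading genes of cluster 4, whose share differed between the groups. Within cluster 2 alone its log2 fold change was −1.39 ± 0.34 (limma adjusted p 0.0878) and within cluster 4, with I/R 2 and SBP 1 left out for having under 20 nuclei, −1.14 ± 0.29 (0.578), and no member was called by limma within either cluster, where 79 of 12127 and 0 of 12244 genes were called.

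All 6 genes grouped under uptake had log2 fold changes above 0 in cardiomyocytes, from 0.30 to 2.53, and none was called with all 9 mice. The 2.53 was that of Angptl4, an inhibitor of lipoprotein lipase, and the others ran from 0.30 to 0.93. Cd36, the main fatty acid translocase, was measured at 847, 1566 and 1578 CPM in sham, 1499.9, 3224 and 2989 CPM in I/R and 3049, 2437 and 1527 CPM in SBP mice. I/R 2 and I/R 3 lay above the sham mice and I/R 1 among them (0.93 ± 0.36, limma adjusted p 0.279). Without I/R 1 its log2 fold change was 1.28 and it was called (limma adjusted p 0.0459). Slc27a1, which encodes the transport protein FATP1, had levels of 247, 343 and 287 CPM in sham, 319, 365 and 439.8 CPM in I/R and 479, 465 and 465 CPM in SBP mice. All SBP mice exceeded all sham and I/R mice, and the I/R range overlapped that of sham (0.36 ± 0.18). Fabp3, the heart fatty acid-binding protein, was at 247, 518 and 337 CPM in sham, 379.8, 412 and 556 CPM in I/R and 498, 395 and 449.6 CPM in SBP mice, with overlapping groups (0.34 ± 0.26). Lpl, lipoprotein lipase, was at 1354, 938 and 1144 CPM in sham, 1217, 1492 and 1506 CPM in I/R and 1226, 1032 and 1407 CPM in SBP mice, again overlapping (0.30 ± 0.21). Angptl4, a secreted inhibitor of lipoprotein lipase and a PPAR target, was low and uneven at 0.379, 14.7 and 0.708 CPM in sham, 10.4, 31.8 and 18.3 CPM in I/R and 43.2, 9.06 and 4.35 CPM in SBP mice (2.53 ± 0.96, limma adjusted p 0.271). Sham 2 overlapped the I/R range. All 6 uptake genes without I/R 1 again lay above 0, with log2 fold changes of 0.47 for Slc27a1, 0.45 for Fabp3, 0.40 for Lpl and 2.92 for Angptl4, and of these Cd36 alone was called.

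The thioesterases, which split acyl-CoA back to free fatty acid, had larger positive differences than every uptake gene except Angptl4. Acot2, the mitochondrial form, was at 4.17, 14.9 and 7.18 CPM in sham, 12.8, 22.1 and 27.1 CPM in I/R and 28, 15.3 and 19.1 CPM in SBP mice (1.25 ± 0.40, limma adjusted p 0.199). Only sham 2 reached into the I/R range. Acot1, the cytosolic form and its neighbour on chromosome 12, was at 0.379, 9.29 and 2.12 CPM in sham, 5.11, 11.6 and 16.2 CPM in I/R and 16.9, 9.80 and 8.69 CPM in SBP mice (1.63 ± 0.65, limma adjusted p 0.291). The pair shares sequence, with 13.1% of the 90-base windows of the Acot1 transcript found in that of Acot2, so reads from there could be assigned uncertainly. Toward the end of the transcripts, which these libraries capture, 15 windows of Acot1 and 0 of Acot2 were found in the other. With I/R 1 left out the log2 fold change was 1.54 for Acot2 (limma adjusted p 0.0516) and 2.06 for Acot1 (0.0983). Acsl1, the main cardiac acyl-CoA synthetase, differed by 0.05 ± 0.20.

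The carnitine shuttle and β-oxidation genes showed no shared direction in cardiomyocytes. Their medians were 0.13 for both groups, with 4 of 6 shuttle and 7 of 11 β-oxidation genes above 0, and none was called. Cpt1b was at 1.90, 3.14 and 1.92 CPM in sham, 2.10, 2.29 and 2.90 CPM in I/R and 4.03, 3.12 and 1.51 CPM in SBP mice, from 151 UMIs in all (0.06 ± 0.30). The gene model Gm44502 spans it on the same strand (GRCm38, chr15:89416405-89429696) and had 10 UMIs in cardiomyocytes. Acadm, medium-chain acyl-CoA dehydrogenase, was at 111, 281 and 189 CPM in sham, 163, 206 and 230.5 CPM in I/R and 215, 241 and 174 CPM in SBP mice (0.13 ± 0.29), with the I/R range inside that of sham. Among the other dehydrogenase and trifunctional protein genes, Hadhb had a log2 fold change of 0.64 ± 0.35 and Hadha, its partner subunit, of 0.52 ± 0.34. Hadh, short-chain 3-hydroxyacyl-CoA dehydrogenase, went the other way at 52.7, 117 and 74 CPM in sham, 49.6, 47.3 and 47.3 CPM in I/R and 43.2, 60.6 and 44 CPM in SBP mice. Each I/R value lay below each sham value (−0.67 ± 0.25, limma adjusted p 0.256), without passing the test. Etfb, a subunit of the electron transfer flavoprotein that takes electrons from the dehydrogenases, was at 61.6, 103 and 54.3 CPM in sham, 40.1, 38.1 and 57.2 CPM in I/R and 52.8, 48.3 and 40.6 CPM in SBP mice (−0.65 ± 0.24, limma adjusted p 0.258), while its partner Etfa differed by 0.60 ± 0.29. Once I/R 1 was left out, the shuttle and β-oxidation medians were 0.32 and 0.27, with 4 of 6 and 7 of 11 genes above 0. Acadm then differed by 0.27, Cpt1b by 0.13, Hadhb by 0.86, Hadha by 0.79, Hadh by −0.69, Etfb by −0.58 and Etfa by 0.91, and none was called.

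The other shuttle and oxidation genes were not called in cardiomyocytes either. Mlycd, malonyl-CoA decarboxylase, differed by 0.71 ± 0.40, and Acacb, which makes malonyl-CoA, by 0.19 ± 0.29. Cpt1a, the liver form of the transferase, differed by −0.47 ± 0.46, Cpt2, on the inner membrane, by −0.35 ± 0.26 and Slc25a20, the carnitine-acylcarnitine carrier, by 0.21 ± 0.51. The long-chain, very-long-chain and short-chain dehydrogenase genes Acadl, Acadvl and Acads differed by 0.49, 0.05 and −0.46, with SE of 0.26, 0.25 and 0.24. Echs1, the enoyl-CoA hydratase, differed by −0.26 ± 0.19 and Acaa2, the thiolase, by −0.06 ± 0.40. Eci1 and Decr1, which serve unsaturated fatty acids, differed by 0.16 ± 0.33 and 0.44 ± 0.47, and Etfdh, which hands electrons to ubiquinone, by 0.53 ± 0.37. Fabp4, Ppard and Plin5 differed by 0.37 ± 0.35, −0.23 ± 0.19 and 0.24 ± 0.21. Each of these differences was smaller than 2 SE. When I/R 1 was left out, Mlycd (1.12), Acadl (0.71), Acacb (0.55), Etfdh (0.82), Eci1 (0.54) and Plin5 (0.46) were larger than 2 SE, and none was called. The share of all genes beyond 2 SE in that fit was not computed, so nothing is drawn from this.

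The 5 regulators of the pathway had a median of −0.23 and none was called in cardiomyocytes. Ppara, the nuclear receptor PPARα, was at 725, 344 and 670.2 CPM in sham, 579, 352 and 461 CPM in I/R and 297, 524 and 552 CPM in SBP mice (−0.28 ± 0.33), with overlapping groups. Ppargc1a, which encodes PGC-1α, was at 1871, 825 and 1073 CPM in sham, 1133, 1419 and 1073 CPM in I/R and 1661, 1093 and 1569 CPM in SBP mice (0.02 ± 0.29), also overlapping. Esrrg, the estrogen-related receptor γ, differed by −0.38 ± 0.26 and Esrra by 0.12 ± 0.16. The median of the regulators without I/R 1 was −0.22, with Ppara at −0.45, Ppargc1a at 0.06 and Esrrg at −0.69 (limma adjusted p 0.0635).

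Genes of triglyceride storage and uncoupling had differences of both signs. Dgat2, which makes the last step of triglyceride synthesis, was at 185, 179 and 236 CPM in sham, 73, 76.9 and 172 CPM in I/R and 79.7, 103 and 101 CPM in SBP mice. All I/R and SBP values lay below all sham values (−1.0 ± 0.29, limma adjusted p 0.152), and it was not called. Pnpla2, adipose triglyceride lipase, was at 21.2, 49.6 and 25.1 CPM in sham, 22.4, 66.4 and 115 CPM in I/R and 75.9, 51.7 and 43.8 CPM in SBP mice (0.88 ± 0.52). Without I/R 1 its log2 fold change was 1.52 and it was called (limma adjusted p 0.0394). Ucp3, the uncoupling protein of muscle, was at 29, 236 and 45.1 CPM in sham, 75.4, 156 and 280.1 CPM in I/R and 201, 124 and 89.6 CPM in SBP mice (1.12 ± 0.71), and sham 2 lay within the I/R range. Without I/R 1 the log2 fold change of Dgat2 was −0.78 and that of Ucp3 1.61. Leaving out I/R 1 raised the median of the 39 members from 0.19 to 0.45 and the number called from 1 to 3, namely Ces1d, Cd36 and Pnpla2, with a limma adjusted p of 0.00459 for Ces1d. Calls rose over all genes as well, to 6.28% of 12617, while the median over all genes was −0.03. I/R 1 held the lowest I/R value for 29 of 39 members, so leaving it out raises the I/R mean of those. It was picked after seeing the data. Leaving out each mouse in turn gave 0 to 3 called members (0.173% to 6.28% of all genes).

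**Figure D2:**
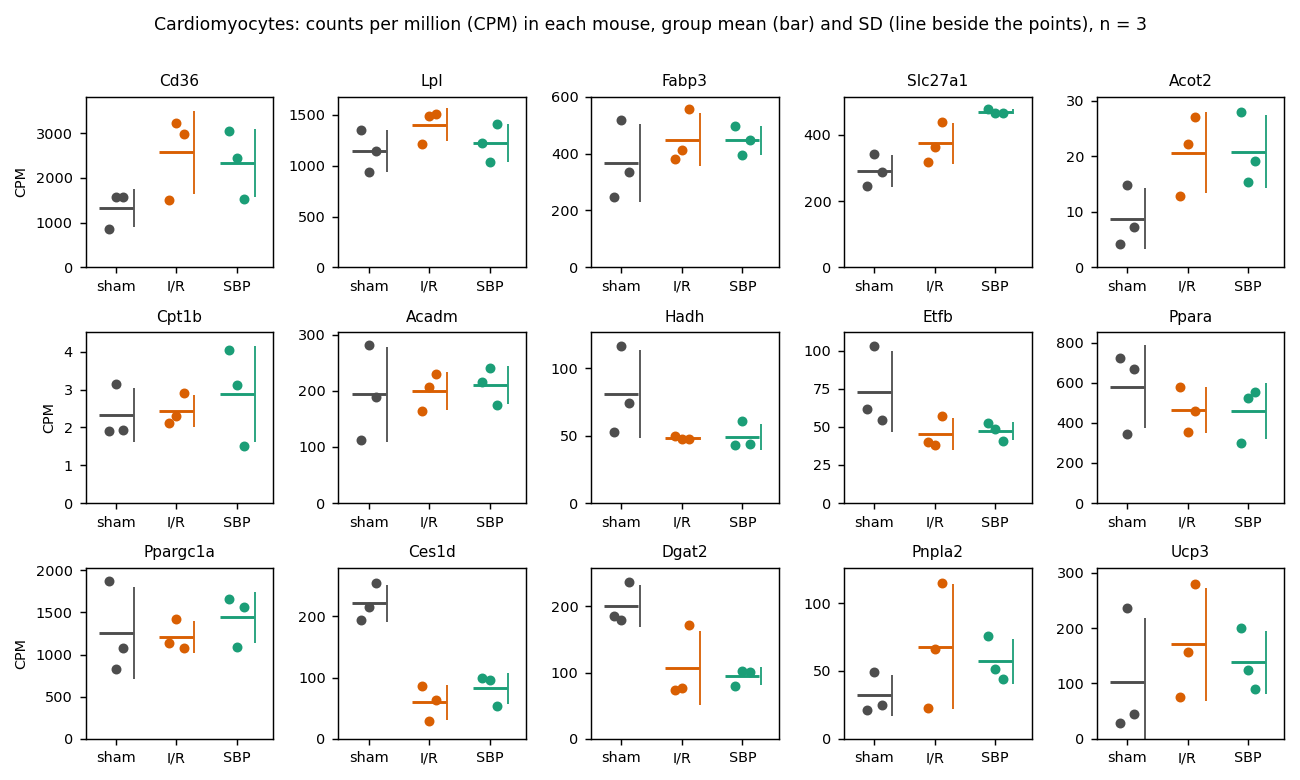
Level of 15 members in cardiomyocytes of each mouse, in TMM-scaled CPM. Points are mice, lines are group means and error bars are SD (n = 3). Ces1d and Dgat2 lie lower in every I/R and SBP mouse than in any sham mouse, and Cd36 lies higher in I/R 2 and I/R 3 (3224 and 2989 CPM) than in I/R 1 (1500 CPM).

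In endothelial cells 38 members were tested and 3 were called, against 3.24% of 12205 genes. Cd36 rose (1.88% of all genes were called higher), and Ces1d and Esrrg fell (1.36% lower). The median of the members was −0.23, against −0.01 over all genes. Cd36 was at 779, 954 and 1658 CPM in sham, 1816, 2844 and 3139 CPM in I/R and 2411, 1701 and 1672 CPM in SBP mice. All I/R mice lay above all sham mice (1.24 ± 0.29, limma adjusted p 0.0480, 0.0137 to 0.167 over the alternatives). The call was lost without sham 1, sham 2, I/R 2, I/R 3, SBP 2 or SBP 3, with an adjusted p of up to 0.167. With subclusters 2 and 6 left out, a choice made after seeing the data, the log2 fold change of Cd36 was 1.86 (limma adjusted p 0.0137). Fabp4 was at 465, 797 and 1329 CPM in sham, 1081, 951 and 1338 CPM in I/R and 1322, 977 and 1023 CPM in SBP mice (0.49 ± 0.32), with sham 3 near the top of the I/R range, and at 1.28 without those subclusters (limma adjusted p 0.0680). Lpl was at 719, 607 and 1135 CPM in sham, 539.6, 752 and 999.6 CPM in I/R and 599, 639.9 and 544 CPM in SBP mice, with overlapping groups (−0.10 ± 0.25). Its direction turned to 0.32 without the 2 subclusters. Leaving them out takes nuclei with high Cd36, Fabp4 and Lpl, whose best marker match was capillary, mainly from sham mice. Named capillary-like nuclei then made up 15.3% to 40.3% of the nuclei left in sham and 52.0% to 62.1% in I/R mice. The composition of the nuclei thus still differed between the groups, and its part in these values was not tested. In that setting the median of the members was −0.09, against 0.01 over all genes, and 3 members were called, against 3.95% of all genes. The Cd36 call was also lost with limma-voom, without the filter on low values, with a replicate block and with the 6 mice compared.

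Of the genes that were lower in endothelial cells, Esrrg was at 286, 306 and 232 CPM in sham, 173, 108 and 132 CPM in I/R and 157, 129.5 and 90.9 CPM in SBP mice, without overlap between sham and the other groups (−1.01 ± 0.22, limma adjusted p 0.0301). Ces1d was at 14, 21.2 and 26.1 CPM in sham, 5.99, 3.03 and 9.52 CPM in I/R and 5.62, 7.35 and 3.22 CPM in SBP mice, again without overlap (−1.64 ± 0.39, limma adjusted p 0.0416). Both lay within the range of cardiomyocyte transcripts in these nuclei, where 6 of the 7 cardiomyocyte markers were also called lower, with a median log2 fold change of −0.90. The part of free RNA in these differences was not tested. The Esrrg call was lost without sham 1, sham 2, sham 3, I/R 2 or I/R 3 and the Ces1d call without sham 2, sham 3, I/R 1, I/R 2 or SBP 1. Their limma adjusted p ranged from 0.0158 to 0.129 and from 0.0171 to 0.183 over the alternatives. All 11 β-oxidation genes had log2 fold changes below 0, from −0.75 to −0.12 with a median of −0.32, and none was called. Over all genes tested in endothelial cells, 5895 of 12205 lay above 0. Without subclusters 2 and 6, the first of which held the higher β-oxidation levels given above and far more of the sham nuclei, 10 of the 11 lay below 0, from −0.56 to 0.02 with a median of −0.19, and the part of the mix of nuclei was not tested.

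**Figure D3:**
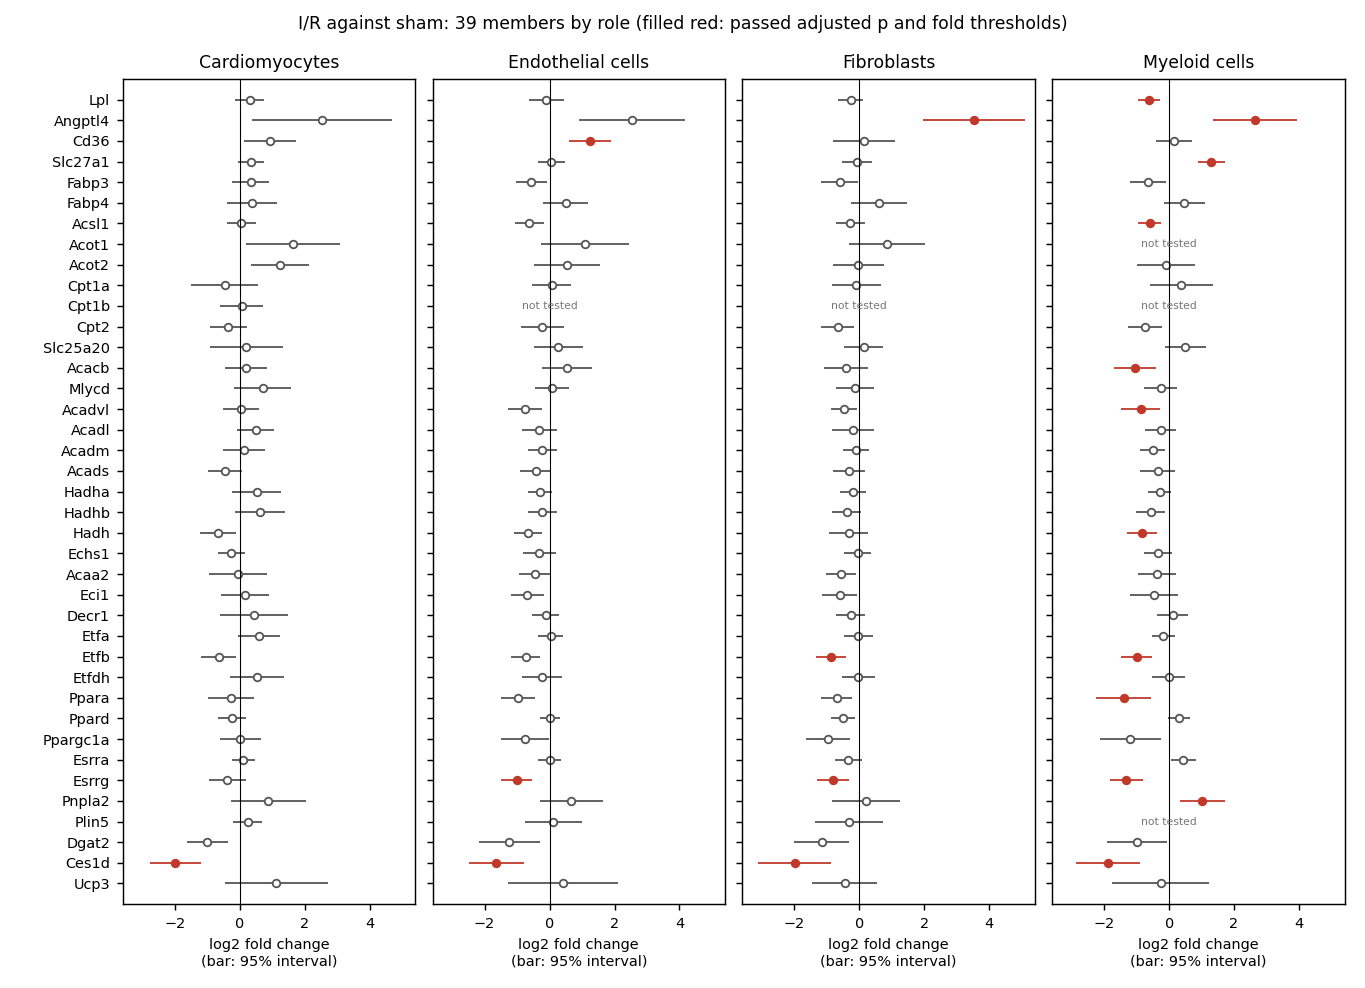
I/R against sham for every member in the 4 cell types: log2 fold change on the log2(CPM + 1) scale with its 95% interval, called members in filled red. Ces1d lies to the left in all 4 types, and members untested for low values are marked as such. Fibroblast Angptl4 reaches 3.54, and the 11 β-oxidation genes lie to the left of 0 in endothelial cells and fibroblasts.

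In fibroblasts 4 of 38 members were called, against 11.4% of 13079 genes. Angptl4 rose (6.95% of all genes were called higher), and Ces1d, Esrrg and Etfb fell (4.48% lower). The median was −0.30, against 0.02 over all genes. Angptl4 was at 0.889, 10.7 and 2.41 CPM in sham, 21.9, 90 and 56.1 CPM in I/R and 76.6, 30.1 and 34.9 CPM in SBP mice, and the lowest I/R value was above the highest sham value (3.54 ± 0.70, limma adjusted p 0.0116, 0.00361 to 0.262 over the alternatives). With sham 1 and sham 3 at 0.889 and 2.41 CPM, Angptl4 passed the filter on low values mainly through the I/R and SBP mice. Nothing is drawn from how often it was called. The Angptl4 call was lost without I/R 3 (limma adjusted p 0.0519). Its level differed between clusters, and I/R mice had 43.3 to 187 CPM in the Tnc and Postn cluster 7 and 3.91 to 33.5 CPM in cluster 0, the largest, where sham mice had 0.881 to 10.8 CPM. The call was also lost with limma-voom. Within cluster 0 alone the log2 fold change was 2.07 and not called (limma adjusted p 0.262). In all 4 types sham 2 was the highest sham mouse for Angptl4, and SBP 1 was the highest SBP mouse.

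Etfb, whose fibroblast level was 101% of that of cardiomyocytes in the median mouse, was at 64.4, 107 and 76.7 CPM in sham, 38.5, 41.2 and 53.5 CPM in I/R and 54.6, 41.1 and 40.6 CPM in SBP mice. All sham values exceeded all others (−0.87 ± 0.21, limma adjusted p 0.0218, 0.0114 to 0.0755 over the alternatives). The call was lost without sham 2, sham 3 or I/R 2. Esrrg was at 238, 305 and 215 CPM in sham, 203, 120.1 and 117 CPM in I/R and 129.8, 168 and 118 CPM in SBP mice (−0.81 ± 0.22, limma adjusted p 0.0376, 0.00352 to 0.116 over the alternatives), and was lost without sham 1, sham 2, sham 3, I/R 2, I/R 3, SBP 1 or SBP 3. Ces1d was at 14.7, 33.9 and 20.6 CPM in sham, 9.63, 1.42 and 6.24 CPM in I/R and 4.79, 10.6 and 6.68 CPM in SBP mice (−2.0 ± 0.51, limma adjusted p 0.0297, 0.00842 to 0.157 over the alternatives), and was lost without sham 2, sham 3 or I/R 2. For both, each I/R and SBP value lay below each sham value. All 7 cardiomyocyte markers were called lower in fibroblasts as well (median −1.15), and the part of free RNA in the Esrrg and Ces1d differences was not tested. In cluster 0 alone, no member was called by limma, against 3.51% of all genes, while the folds stayed close, at −0.76 for Etfb (limma adjusted p 0.0755), −0.90 for Esrrg (0.0562) and −1.74 for Ces1d (0.157), and the median of the members was −0.26. All 11 β-oxidation genes lay below 0 (−0.61 to −0.06), as did all 5 regulators (median −0.70). In cluster 0 alone 9 of the 11 and all 5 regulators (median −0.46) did. Over all genes tested in fibroblasts, 6798 of 13079 lay above 0. Among the regulators, Ppara, Ppargc1a and Esrrg lay at or under the level of free cardiomyocyte RNA here. The part of free RNA in the directions of both sets was not tested.

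Myeloid cells had the most calls, 12 of 36 members tested, against 17.8% of 10913 genes. The 12 include Angptl4 and Ces1d, which passed the filter on low values only through the groups where they were high. The 12 are therefore not read against that share. Angptl4, Slc27a1 and Pnpla2 rose (10.2% of all genes were called higher), and Ces1d, Ppara, Esrrg, Acacb, Etfb, Acadvl, Hadh, Lpl and Acsl1 fell (7.65% lower). The median was −0.35, against 0.09 over all genes. Slc27a1 was at 48.6, 62.5 and 47.6 CPM in sham, 150.3, 107 and 139.6 CPM in I/R and 180.1, 159.6 and 123 CPM in SBP mice, with every I/R and SBP mouse above every sham mouse (1.30 ± 0.19, limma adjusted p 0.000992, 0.000742 to 0.400 over the alternatives). It was called without each mouse in turn. It was higher in the Gpnmb and Arg1 cluster 3 of I/R mice, at 121 to 191 CPM, than in cluster 5, at 60.8 to 86.1 CPM, and within cluster 5 alone its log2 fold change was 0.52 and not called (limma adjusted p 0.400). Angptl4 was at 0, 3.42 and 0 CPM in sham, 5.63, 12.5 and 11 CPM in I/R and 19.7, 9.71 and 9.21 CPM in SBP mice. The sham mice together had 4 UMIs, all in sham 2, so the size of the fitted change (2.64 ± 0.59, limma adjusted p 0.00953, 0.00212 to 0.0381 over the alternatives that tested it) rests on few counts. Angptl4 reached the 7.08 CPM that the filter on low values asks for in no sham mouse and in 2 I/R and 3 SBP mice, and so entered the test only through the groups where it was high. Nothing is drawn from its adjusted p or from how often it was called. Pnpla2 was at 17.8, 15.4 and 22.4 CPM in sham, 23.6, 40.9 and 57.9 CPM in I/R and 46.6, 27.6 and 26.2 CPM in SBP mice (1.02 ± 0.32, limma adjusted p 0.0438, 0.00690 to 0.197 over the alternatives), with I/R 1 close to sham 3. That call was lost in 15 of 20 alternatives, among them limma-voom, median-ratio scaling, no filter on low values, the replicate block and types from marker scores, and without sham 1, sham 2, sham 3, I/R 2, I/R 3, SBP 2 or SBP 3.

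Among the lower genes in myeloid cells, Etfb again lay at 111% of the cardiomyocyte level in the median mouse. It was at 79.3, 122 and 91.7 CPM in sham, 44.6, 38.8 and 61.9 CPM in I/R and 57.7, 43.1 and 45.4 CPM in SBP mice, and all sham values exceeded the rest (−1.0 ± 0.22, limma adjusted p 0.00887, 0.00512 to 0.117 over the alternatives). Esrrg was at 282, 239 and 173 CPM in sham, 129, 77.3 and 73.3 CPM in I/R and 71.9, 73.1 and 58.8 CPM in SBP mice (−1.32 ± 0.23, limma adjusted p 0.00252, 0.000302 to 0.173 over the alternatives), without overlap. Ces1d was at 22.7, 20.5 and 15.2 CPM in sham, 5.63, 2.08 and 7.02 CPM in I/R and 4.74, 1.82 and 5.67 CPM in SBP mice (−1.88 ± 0.45, limma adjusted p 0.0130, 0.00519 to 0.106 over the alternatives), without overlap. Ces1d reached the 7.08 CPM of the filter in the sham mice only, and so entered the test through the group where it was high, and nothing is drawn from how often it was called. The Etfb and Esrrg calls held without each mouse in turn. Ppara was at 84.2, 30.8 and 31.8 CPM in sham, 19.6, 10.4 and 19.3 CPM in I/R and 7.90, 10.3 and 6.38 CPM in SBP mice (−1.41 ± 0.38, limma adjusted p 0.0251), and was lost without sham 1 or I/R 2. Acacb, the acetyl-CoA carboxylase that makes malonyl-CoA at the mitochondrion, was at 64.7, 76.2 and 60.6 CPM in sham, 18.3, 38.5 and 46.1 CPM in I/R and 33.2, 30 and 22 CPM in SBP mice (−1.04 ± 0.30, limma adjusted p 0.0304), and was lost without sham 1, sham 2, sham 3 or I/R 1. For both genes the I/R and SBP values lay below the sham values.

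The remaining 4 calls in myeloid cells had smaller changes. Acadvl, very-long-chain acyl-CoA dehydrogenase, fell by 0.88 on the log2 scale (limma adjusted p 0.0437), Hadh by 0.84 (0.0195), Lpl by 0.61 (0.0188) and Acsl1 by 0.60 (0.0214). The Acadvl call was lost without sham 1, sham 2, sham 3, I/R 1, I/R 2 or SBP 2, the Hadh call without sham 2, sham 3 or I/R 2, the Lpl call without sham 3 or I/R 1 and the Acsl1 call without sham 2, sham 3 or I/R 3. Their limma adjusted p over the alternatives was 0.0161 to 0.130, 0.0123 to 0.494, 0.0138 to 0.523 and 0.0159 to 0.556, and those of Ppara and Acacb from 0.0177 to 0.234 and 0.0129 to 0.257. One alternative, the largest myeloid cluster, is cluster 3, with 16, 47 and 22 nuclei in sham 1 to sham 3. Sham 1, with under 20, was left out there. Esrrg, Ces1d, Ppara and Acacb lay at or under the level of free cardiomyocyte RNA in these nuclei. Lpl and Acsl1 lay a little above it, at 26.9% and 27.8% of the cardiomyocyte level in the median mouse. The highest value of any marker in a single mouse was 21.9%. The other lower genes lay further above. All 7 cardiomyocyte markers were called lower (median −1.22), and the part of free RNA was not tested for any of the lower genes. Within cluster 5 alone, which was examined after seeing the data, 1 of 32 members tested was called (1.62% of all genes), Esrrg (−1.0, limma adjusted p 0.0475), and Angptl4 and Ces1d had too few UMIs to test. The median of the members there was −0.48, with −0.51 for β-oxidation genes and −0.996 for regulators. Over all myeloid nuclei these medians were −0.35, −0.37 and −1.19. The median of uptake genes was 0.05 in cluster 5, against 0.31. For the lower genes, the loss of calls in cluster 5 thus does not show that the differences were absent.

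**Figure D4:**
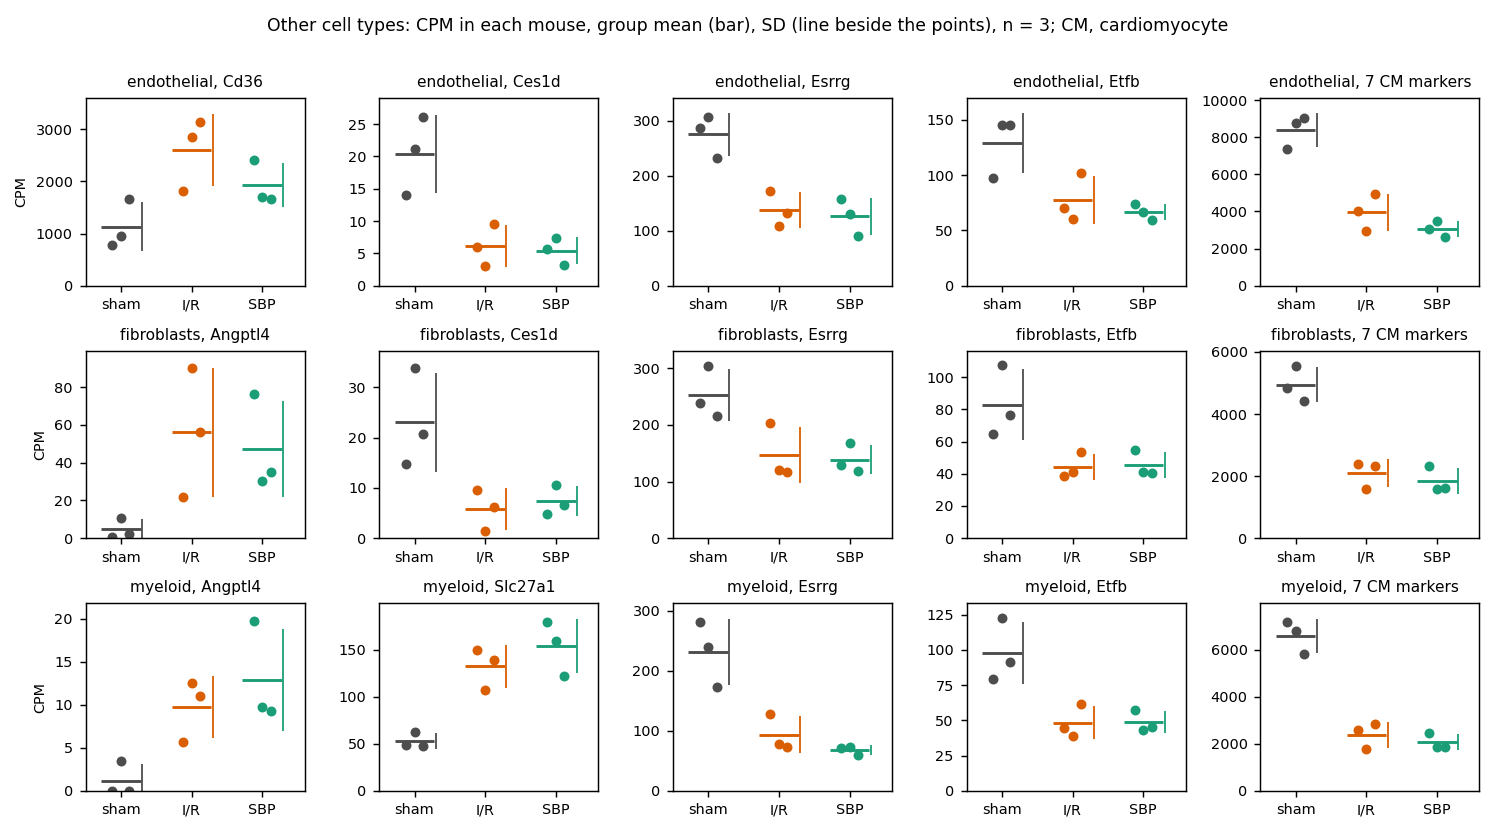
Levels per mouse, in TMM-scaled CPM, of members called in endothelial cells, fibroblasts and myeloid cells, with the summed level of the 7 cardiomyocyte markers in the same nuclei beside them. Lines are means and error bars are SD (n = 3). Angptl4 in fibroblasts and myeloid cells and Slc27a1 in myeloid cells are higher in every I/R and SBP mouse than in any sham mouse, while Esrrg, Ces1d and the summed markers are lower in every I/R and SBP mouse, as is Etfb except in endothelial cells, where I/R 3 (102 CPM) lies within the sham range.

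Whether the I/R effect differed between cardiomyocytes and another type was tested on the difference within each mouse. Against endothelial cells 0 of 38 members were called by limma (0.0352% of 11374 genes), and 13 had an unadjusted p below 0.05 (11.0% of all genes). Against fibroblasts 2 of 38 were called (2.23% of 11785 genes), Acot2 and Ucp3. Against myeloid cells 5 of 36 were called (5.59% of 10272 genes), Acacb, Acot2, Fabp3, Hadhb and Ppargc1a. In all 7 the cardiomyocyte effect was the higher. The 7 differences ranged from 0.99 to 1.56 on the log2 scale, and limma-voom was not run for these differences.

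SBP was then compared with I/R. No member was called in any of the 4 types by limma or by limma-voom, and 0% of all genes were called in each type. The log2 fold changes lay between −0.53 and 0.54 in cardiomyocytes, −1.09 and 0.38 in endothelial cells, −0.49 and 0.49 in fibroblasts and −0.89 and 0.48 in myeloid cells. At an unadjusted p below 0.05 the numbers were 0 of 39 in cardiomyocytes (2.23% of all genes), 1 of 38 in endothelial cells (5.18%), 0 of 38 in fibroblasts (3.52%) and 2 of 36 in myeloid cells (3.79%). The medians were −0.02, −0.07, 0.04 and 0.03, against 0.02, −0.00, 0.00 and −0.03 over all genes. The median half-width of the 95% intervals was 0.64 in cardiomyocytes and 0.53 in each of the other types. Moderate shifts lie inside the interval of most members, and the absence of calls does not show that SBP left them at the I/R level.

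In cardiomyocytes the member with the lowest p in this comparison was Slc27a1, whose per-mouse levels are given above, with a log2 fold change of 0.34 (95% interval −0.06 to 0.74, limma unadjusted p 0.0883). All 3 SBP mice lay above the 3 I/R mice, but the share of all genes without overlap was not computed. Plin5, which coats lipid droplets beside mitochondria, was at 33.9, 31.2 and 29 CPM in sham, 27.4, 36.6 and 51.3 CPM in I/R and 27.5, 30.5 and 28.2 CPM in SBP mice, where I/R 3 was the highest mouse (−0.36, 95% interval −0.82 to 0.09). Ces1d differed by 0.54 (95% interval −0.25 to 1.32), with the SBP mice from 53.3 to 98.5 CPM, below all sham mice. Cd36 differed by −0.12 (−0.92 to 0.68), Fabp3 by 0.01 (−0.56 to 0.57), Lpl by −0.21 (−0.66 to 0.25) and Acadm by 0.07 (−0.56 to 0.71). Cpt1b differed by 0.13 (−0.53 to 0.79), Ppara by −0.04 (−0.76 to 0.67) and Ppargc1a by 0.24 (−0.40 to 0.88). Without I/R 1, no member was called by limma and the median over the members was −0.19, with Slc27a1 at 0.23, Plin5 at −0.58, Ces1d at 0.86, Cd36 at −0.47, Lpl at −0.31 and Acadm at −0.07.

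In endothelial cells Plin5 had the lowest unadjusted p, at 9.53, 12 and 8.55 CPM in sham, 5.53, 10.4 and 21.6 CPM in I/R and 6.37, 4.13 and 3.62 CPM in SBP mice (−1.09 ± 0.40, limma adjusted p 0.953). I/R 3 was far above the other mice and I/R 1 lay within the SBP range. Ppara was at 65.1, 34.2 and 50.5 CPM in sham, 21.7, 23.8 and 27.5 CPM in I/R and 14.2, 22.5 and 16.1 CPM in SBP mice (−0.46 ± 0.24), and Decr1, the dienoyl-CoA reductase for unsaturated fatty acids, was at 37, 52.4 and 54.1 CPM in sham, 35.5, 51.9 and 44 CPM in I/R and 38.6, 34 and 31.8 CPM in SBP mice (−0.31 ± 0.19). Both overlapped between SBP and I/R. Cd36 differed by −0.41 (95% interval −1.06 to 0.23), Fabp4 by −0.02 (−0.72 to 0.68) and Lpl by −0.32 (−0.87 to 0.23). In fibroblasts Lpl had the lowest unadjusted p, at 389, 348 and 449 CPM in sham, 321, 315 and 341 CPM in I/R and 341, 213 and 263 CPM in SBP mice (−0.28 ± 0.17). Next came Ppard, the receptor PPARδ, at 154, 99.4 and 119.7 CPM in sham, 81.4, 81.5 and 97.6 CPM in I/R and 106, 96.9 and 105 CPM in SBP mice (0.25 ± 0.17), and Slc27a1 at 21.8, 37.1 and 22.7 CPM in sham, 27.4, 23.8 and 24 CPM in I/R and 34.9, 27.2 and 31.1 CPM in SBP mice (0.29 ± 0.21). The Lpl ranges overlapped at 341 CPM, the Ppard ranges overlapped, and the SBP Slc27a1 range began just under the highest I/R mouse.

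In myeloid cells Ppara, Decr1 and Esrra were the members with the lowest unadjusted p. Ppara, given above, was lower in every SBP mouse than in any I/R mouse (−0.89 ± 0.38, limma unadjusted p 0.0373, adjusted p 0.999). Decr1 was at 30.8, 35.1 and 22.4 CPM in sham, 27.3, 34.7 and 32.5 CPM in I/R and 22.9, 23.7 and 19.8 CPM in SBP mice, also without overlap between SBP and I/R (−0.49 ± 0.22, limma adjusted p 0.999). Esrra, estrogen-related receptor α, was at 82.5, 81.3 and 64.3 CPM in sham, 100.5, 123 and 87.3 CPM in I/R and 74.2, 91.6 and 78.7 CPM in SBP mice (−0.34 ± 0.18), with overlap. None of the 3 passed the adjusted threshold. The share of all genes without overlap was not computed, so nothing is drawn from the separation of Ppara and Decr1.

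**Figure D5:**
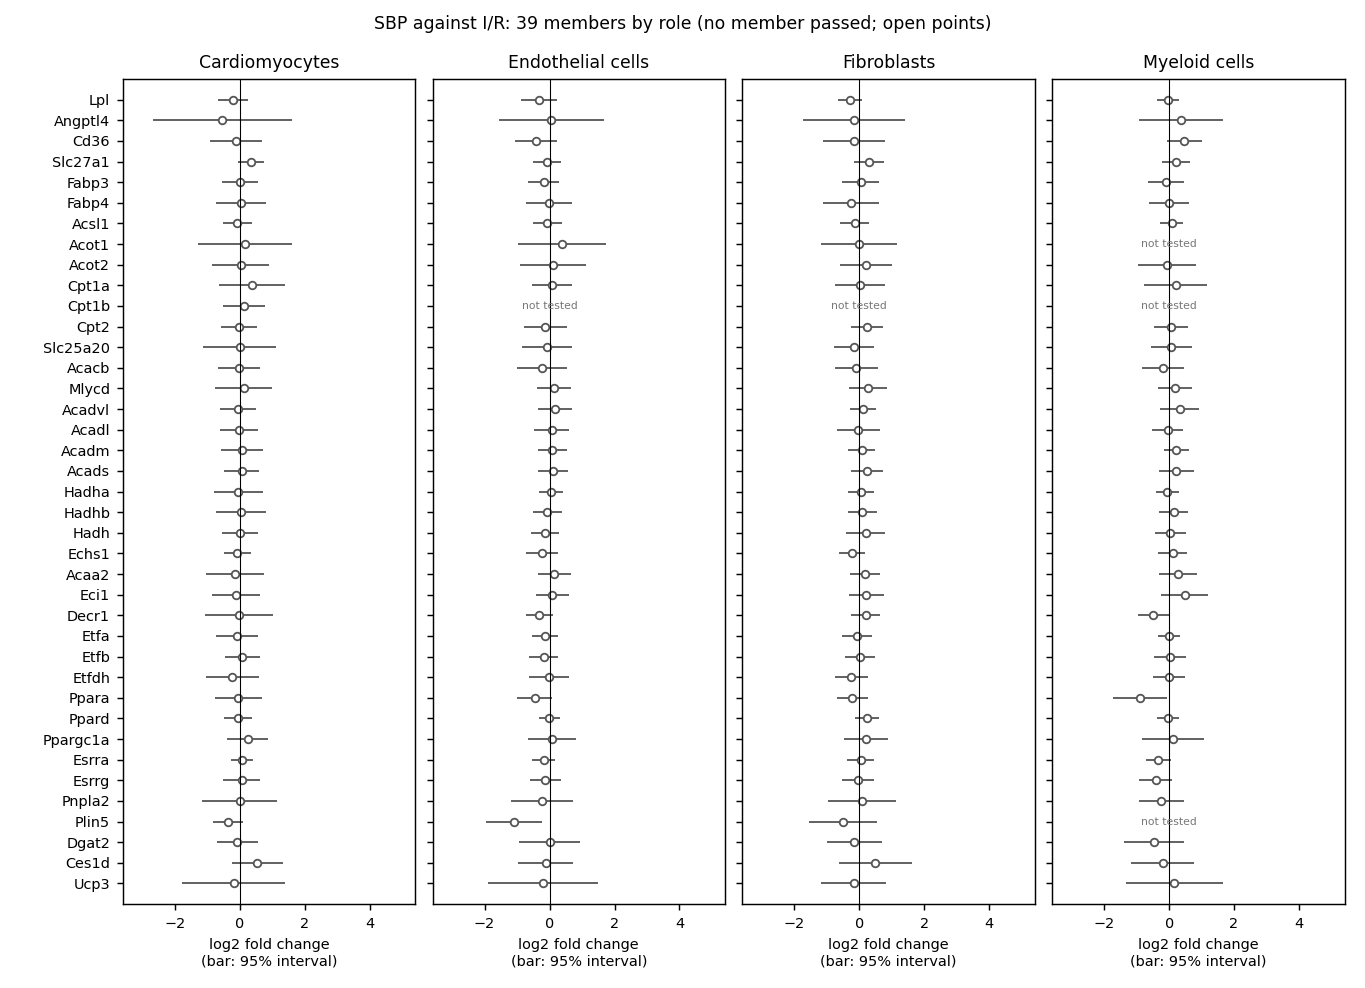
SBP against I/R for every member in the 4 cell types: log2 fold change on the log2(CPM + 1) scale with its 95% interval. No point is filled because no member was called, and the interval includes 0 for 39 of 39 members in cardiomyocytes, 37 of 38 in endothelial cells, 38 of 38 in fibroblasts and 34 of 36 in myeloid cells.

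Finally, SBP was compared with sham. The sham mice are those of the I/R comparison, so the values are set side by side and no overlap of calls is drawn. In cardiomyocytes 0 of 39 members were called by limma (0.139% of all genes) and 0 by limma-voom, while 8 had an unadjusted p below 0.05 (13.4% of all genes). Their median was 0.19, against −0.01 over all genes. Ces1d differed by −1.45 ± 0.35 (limma adjusted p 0.122), Dgat2 by −1.07 ± 0.29 (0.149), Slc27a1 by 0.70 ± 0.18 (0.136) and Acot2 by 1.27 ± 0.40 (0.212). In each of these 4 the SBP and sham mice did not overlap. The share of all genes without overlap was not computed, so nothing is drawn from this. Without I/R 1, which shares only the estimate of spread with this comparison, Ces1d was called (limma adjusted p 0.0372), the only member called, against 2.28% of all genes.

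In endothelial cells 4 of 38 members were called (2.21% of all genes), all lower (1.54%). Ppara differed by −1.43 ± 0.24 (limma adjusted p 0.0130), Ces1d by −1.76 ± 0.39 (0.0392) and Esrrg by −1.15 ± 0.22 (0.0237). Etfb, at 97.6, 145 and 145 CPM in sham, 70, 60.6 and 102 CPM in I/R and 74.2, 66.6 and 59.5 CPM in SBP mice, was lower in all SBP mice than in any sham mouse (−0.92 ± 0.21, limma adjusted p 0.0446). With subclusters 2 and 6 left out, 1 call was left (1.00% of all genes), Ppara (−1.34, limma adjusted p 0.0284). The lowest log2 fold change among storage, lipolysis and uncoupling genes was then −1.91, against −1.76 with all endothelial nuclei. Among electron transfer genes it was −0.59, against −0.92. Cd36, called in I/R, differed by 0.82 ± 0.29 in SBP (limma adjusted p 0.194), and the direct comparison of SBP with I/R did not separate them. Ppara, Ces1d and Esrrg kept no more of their cardiomyocyte level in these nuclei than the highest cardiomyocyte marker did, and 4 of the 7 cardiomyocyte markers were called lower in SBP than in sham (median −0.82), and the part of free RNA was not tested. Each call was lost without some single mice, that of Ppara without sham 3, SBP 1 or SBP 3, Ces1d without sham 1, sham 2, sham 3, SBP 1, SBP 2 or SBP 3, Esrrg without sham 1, sham 2, sham 3, SBP 2 or SBP 3 and Etfb without sham 2, sham 3, SBP 1, SBP 2 or SBP 3. The limma adjusted p over the alternatives was 0.00503 to 0.0683, 0.0129 to 0.175, 0.00914 to 0.112 and 0.0144 to 0.220 in that order.

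In fibroblasts 4 of 38 members were called (5.97% of all genes), Angptl4 higher (3.82%) and Esrrg, Etfb and Ppara lower (2.15%). Angptl4 differed by 3.39 ± 0.70 (limma adjusted p 0.0216), Esrrg by −0.86 ± 0.22 (0.0445) and Etfb by −0.83 ± 0.21 (0.0385). As above, Angptl4 passed the filter on low values mainly through the I/R and SBP mice, and nothing is drawn from its call. Ppara was at 62.6, 41 and 58.5 CPM in sham, 36.3, 24.1 and 38.4 CPM in I/R and 25.9, 26.9 and 30.6 CPM in SBP mice, with every SBP mouse below every sham mouse (−0.91 ± 0.21, limma adjusted p 0.0268). The calls were lost without sham 1, sham 3, I/R 3, SBP 1, SBP 2 or SBP 3 for Angptl4, sham 1, sham 2, sham 3, SBP 1, SBP 2 or SBP 3 for Esrrg, sham 2, sham 3, SBP 2 or SBP 3 for Etfb and sham 1, sham 3, SBP 1, SBP 2 or SBP 3 for Ppara. The limma adjusted p over the alternatives was 0.00685 to 0.324, 0.00751 to 0.150, 0.0244 to 0.146 and 0.0102 to 0.115, and in cluster 0 alone no member was called by limma (0.762% of all genes). The lowest log2 fold change in cluster 0 was −1.10 among regulators and −0.72 among electron transfer genes, against −0.91 and −0.83 in all fibroblasts. The highest among uptake genes was 2.11, against 3.39. Limma-voom also lost the calls of Angptl4, Esrrg and Etfb, no filter on low values that of Angptl4, and the replicate block, the removal of likely doublets and types from marker scores that of Etfb. Esrrg and Ppara also kept no more of their cardiomyocyte level than the highest marker did here. All 7 cardiomyocyte markers were called lower (median −0.91), and the part of free RNA was not tested.

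In myeloid cells 11 of 36 members were called (12.6% of all genes). Angptl4 and Slc27a1 were higher (7.28%), with log2 fold changes of 3.0 ± 0.59 and 1.52 ± 0.19 (limma adjusted p 0.00631 and 0.000521). Ppara, Ces1d, Esrrg, Dgat2, Acacb, Etfb, Hadh, Lpl and Acsl1 were lower (5.34%). Of these, Ppara differed by −2.30 ± 0.38 (limma adjusted p 0.00267), Ces1d by −2.08 ± 0.45 (0.0103), Esrrg by −1.73 ± 0.23 (0.000787), Acacb by −1.23 ± 0.30 (0.0183) and Etfb by −0.98 ± 0.22 (0.0132). Dgat2 was at 30.8, 37.7 and 36.8 CPM in sham, 7.51, 27.4 and 23.3 CPM in I/R and 18.2, 12.4 and 7.79 CPM in SBP mice, with SBP below sham throughout (−1.45 ± 0.42, limma adjusted p 0.0436). Hadh, Lpl and Acsl1 fell by 0.80, 0.64 and 0.52. Angptl4 and Ces1d, both among the 11, again entered the test only through the groups where they were high. The 11 are therefore not read against the share of all genes. Of the others, the calls of Slc27a1, Ppara and Esrrg held without each mouse in turn. Those of Dgat2 were lost without sham 1, sham 2, sham 3, SBP 2 or SBP 3, of Acacb without sham 1, sham 2, SBP 2 or SBP 3, of Etfb without sham 2 or SBP 2, of Hadh without sham 2, sham 3, SBP 1, SBP 2 or SBP 3, of Lpl without sham 3, SBP 2 or SBP 3 and of Acsl1 without sham 2, sham 3, I/R 1, I/R 3, SBP 2 or SBP 3. The highest limma adjusted p over all alternatives was 0.694 for Acsl1, 0.498 for Hadh, 0.464 for Lpl, 0.234 for Acacb, 0.233 for Dgat2 and 0.132 for Etfb, and Acsl1 was lost in 12 of 20, Dgat2 in 10 and Hadh in 9. Of the 3 that held without each mouse, Slc27a1 was lost in cluster 5 alone (0.138), Esrrg in the largest cluster (0.0676) and Ppara in both of these clusters (up to 0.0594), and Ces1d was lost with types from marker scores (0.0597). The largest cluster, cluster 3, held few sham nuclei and sham 1 was left out there, as given above. Ppara, Ces1d, Esrrg, Dgat2 and Acacb kept no more of their cardiomyocyte level than the highest marker did, and Lpl and Acsl1 a little more. All 7 cardiomyocyte markers were called lower (median −1.35), and the part of free RNA was not tested for any of the lower genes. In cluster 5 alone 2 were called (1.46% of all genes), Acacb (−1.37) and Esrrg (−1.44), with limma adjusted p of 0.0298 and 0.0104. The median of the members there was −0.45, with −0.45 for β-oxidation genes and −1.01 for regulators. Over all myeloid nuclei these medians were −0.26, −0.31 and −1.07, so the loss of calls in cluster 5 does not show that the differences were absent.

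The other genes of fatty acid metabolism, a list of 61 chosen by function, gave a wider view of I/R against sham. In cardiomyocytes 1 of 59 tested was called (0.859% of all genes), Pdk4 (3.40 ± 0.57, limma adjusted p 0.0259), the kinase that blocks pyruvate entry into the citric acid cycle and a PPAR target. Pdk4 was among the 10 leading genes of cardiomyocyte cluster 2, which held 6.67% to 17.1% of sham cardiomyocytes, 21.8% of those of I/R 1 and 95.7% to 99.8% of those of I/R 2 and I/R 3. Within that cluster alone its log2 fold change was 3.37 (limma adjusted p 0.0306). In endothelial cells 3 of 57 were called (3.24% of all genes). These were Ucp2 (1.72 ± 0.34), Plin2 (1.29 ± 0.29), a lipid droplet coat, and Esrrb (−1.29 ± 0.24). In fibroblasts 7 of 58 were called (11.4% of all genes), 2 higher and 5 lower, led by Ucp2 (1.83 ± 0.33), G0s2 (−1.59 ± 0.32), an inhibitor of adipose triglyceride lipase, and Rxrg (−1.18 ± 0.31). In myeloid cells 14 of 54 were called (17.8% of all genes), 7 in each direction. The droplet genes Hilpda (3.05 ± 0.67) and Plin2 (2.45 ± 0.28) and the binding protein gene Fabp5 (2.65 ± 0.49) rose most, and Esrrb (−1.79 ± 0.29), Ehhadh (−1.53 ± 0.39) and Acsl3 (−1.30 ± 0.38) fell most. Hilpda reached the 7.08 CPM of the filter in no sham mouse and Ehhadh in 3 sham mice and 1 SBP mouse, so both entered the test mainly through the groups where they were high. The myeloid calls of Plin2, Fabp5 and Esrrb and the fibroblast calls of Ucp2 and G0s2 held without each mouse in turn, and the others named here, apart from Hilpda, were each lost without single mice. Hilpda was lost with limma-voom (adjusted p 0.211), Fabp5 with limma-voom and in cluster 5 alone (up to 0.293), Plin2 in cluster 5 alone (0.141) and G0s2 in fibroblast cluster 0 alone (0.0921), and the shift of myeloid nuclei from cluster 5 to cluster 3 described above stands beside them. These others were Pdk4 without sham 1, sham 3, I/R 2 or I/R 3 and also with a replicate block, Rxrg without sham 2, sham 3, I/R 2 or I/R 3, Ehhadh without sham 2 or I/R 2, Acsl3 without any sham mouse, I/R 2, I/R 3 or SBP 2, and in endothelial cells Ucp2 without any sham mouse or I/R 2, Plin2 without any sham mouse, I/R 2 or I/R 3 and Esrrb without sham 1, sham 2 or I/R 2. Of the lower genes named, Esrrb in endothelial cells and in myeloid cells and Rxrg in fibroblasts kept no more of their cardiomyocyte level than the highest cardiomyocyte marker did, at 4.32%, 3.09% and 8.44% in the median mouse, while fibroblast G0s2 was at 180%, myeloid Ehhadh at 30.1% and myeloid Acsl3 at 308%. In the same nuclei 6 of the 7 cardiomyocyte markers were called lower in endothelial cells and all 7 in each of the other types (medians −0.90, −1.15 and −1.22 in endothelial cells, fibroblasts and myeloid cells), and the part of free RNA was not tested. Against sham, SBP gave calls for 0 of 59 in cardiomyocytes (0.139% of all genes), 4 of 57 in endothelial cells (2.21%), 4 of 58 in fibroblasts (5.97%) and 6 of 54 in myeloid cells (12.6%), where Plin2 (2.36 ± 0.28) and Fabp5 (2.51 ± 0.49) were again higher than in sham. Both were lost in cluster 5 alone (limma adjusted p 0.268 and 0.537) and Fabp5 also with limma-voom. In cardiomyocytes 7 had an unadjusted limma p below 0.05 (13.4% of all genes). In SBP against I/R, 0 of these genes were called by limma in any type, with 1, 2, 2 and 1 at an unadjusted p below 0.05 (2.23%, 5.18%, 3.52% and 3.79% of all genes).

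The promoters of the members were searched for 2 elements of their nuclear receptors. RefSeq promoters (GRCm38, 250 bases before to 50 after the start) matched 31 of the 39 members, 38 promoters in all. The exact direct repeat of AGGTCA spaced by 1 base, bound by PPAR with RXR, was in 0 of the 38 and in 0.0396% of 32851 promoters. The exact ERR element TCAAGGTCA was in 0 of the 38 and in 0.423% of all. Both strands were searched, and the absence of a match says only that these letters are not in this window. Of the 39 genes, 10 are overlapped by another gene model on the same strand and 12 by one on the other strand, and reads there may be assigned uncertainly. The 10 include Etfb, Esrrg and Ces1d, which were called lower in several of the cell types.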

How the data were processed

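Nuclei of 9 mouse hearts (3 sham, 3 I/R, 3 SBP) were profiled on the 10x platform. The submitters' processing notes name Cell Ranger 4.0, STAR, Seurat 3.2.0 and GRCm38. The authors deposited natural log values per gene and nucleus, ln(1 + 10000 × UMIs / total UMIs). UMIs were recovered by dividing the back-transformed values by the smallest of the nucleus, and at least 99.9994% per sample came within 0.1 of a whole number. The deposited unit is no count, so limma 3.58.1 (R 4.3.3) was run on log values of the recovered UMIs. Limma-voom on the same sums was an alternative, and no other count model was fitted. Nuclei had at least 405 genes.

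Nuclei were clustered with scanpy 1.11.5 (2000 variable genes without the members, 30 components, 20 neighbours, Leiden resolution 0.3), giving 14 clusters, and endothelial nuclei again (20 components, 0.2). Clusters were named from markers with at least 3 detected in over 10% of nuclei. Differences from the study may come from these rebuilt names. With the members kept among the clustering genes, 99.95% of nuclei had the same type, and 83.38% did by marker scores. The doublet caller marked 85 nuclei (0.173%), which were removed, and a share this low was taken to mean that it had not worked.

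Sums per mouse and type (at least 20 nuclei) were scaled with TMM factors and tested as log2(CPM + 1) with limma (trend, robust), 3 groups in one fit, with two-sided tests and Benjamini-Hochberg adjustment over all genes tested. Fold changes on this scale understate changes of low genes. Genes needed 15 UMIs in total and, in 3 samples, a CPM worth 10 UMIs at the median library size. The 39 members and the lists were chosen with earlier results of these data known. Values in each mouse are given for members called in a type (at most 8 per type and contrast, by size of change), the 3 members with the lowest p in SBP against I/R per type, and 10 preset values, Cd36, Fabp3, Lpl, Cpt1b, Acadm, Ppara and Ppargc1a in cardiomyocytes and Cd36, Fabp4 and Lpl in endothelial cells. For the wider list at most 6 called genes were named per type and contrast. Values of Angptl4, Slc27a1, Acot1, Acot2, Hadh, Etfb, Dgat2, Pnpla2 and Ucp3 in cardiomyocytes were added after seeing the data. Alternatives covered scaling, filter, pseudocount (5), limma-voom, replicate block, doublets, other cell sets and leaving out each mouse.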

Additional observations from a re-analysis of the deposited data

Results flagged for a closer look

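The I/R effect differed between cardiomyocytes and another cell type for 7 results, by the limma test of the difference within each mouse. Against fibroblasts, Acot2 differed by 1.28 on the log2 scale (1.25 in cardiomyocytes and −0.03 in fibroblasts) and Ucp3, whose fibroblast level lay within that of free cardiomyocyte RNA, by 1.56 (1.12 and −0.44). Against myeloid cells, Acot2 differed by 1.35 (1.25 in cardiomyocytes and −0.11 in myeloid cells), Acacb by 1.23 (0.19 and −1.04), Fabp3 by 0.99 (0.34 and −0.65), Hadhb by 1.21 (0.64 and −0.57) and Ppargc1a by 1.21 (0.02 and −1.19). Of these genes, Acacb, Ppargc1a and Ucp3 lay at or under the level of free cardiomyocyte RNA in the other type, and the 7 cardiomyocyte markers were themselves called lower in fibroblasts and myeloid cells after I/R. In myeloid cells Hadhb, Fabp3 and Acot2 lay above it, at 23.6%, 27.7% and 60.3% of the cardiomyocyte level in the median mouse. The part of free RNA in these differences was not tested. None of the 7 held without each mouse in turn. Over all alternatives the limma adjusted p reached 0.372 for Acot2 and 0.156 for Ucp3 against fibroblasts, and 0.185 for Acot2, 0.269 for Acacb, 0.861 for Fabp3, 0.401 for Hadhb and 0.262 for Ppargc1a against myeloid cells. Acot2 against fibroblasts was lost without sham 1, sham 3, I/R 2 or I/R 3, and Ucp3 without any mouse but sham 2. Against myeloid cells, Acacb was lost without any sham or I/R mouse, Acot2 without sham 1, sham 3, any I/R mouse or SBP 3, Hadhb without any mouse but I/R 1 or SBP 2, and Fabp3 and Ppargc1a without any mouse but SBP 1.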

How the results depend on the processing

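Numbers of called members depended on the choice of nuclei and mice. Percentages in parentheses are of all genes called by limma in the same fit. With a replicate block 0 were called in cardiomyocytes (0.828%) and 1 in endothelial cells (2.62%) for I/R against sham, 2 in endothelial cells for SBP against sham (1.2%), and 1 (1.67%) and 2 (4.73%) for the difference of cardiomyocytes from fibroblasts and from myeloid cells. Mice with the same replicate number are different animals. Correlations of their deviations ran from −0.32 to 0.29, with 0.13 for each of the 3 sham and SBP pairs in fibroblasts. With limma-voom 0 were called in cardiomyocytes for I/R (0.41%) and 1 in fibroblasts for SBP against sham (3.39%). In the largest cluster of a type only, I/R against sham gave 0 in cardiomyocytes (0.651%), 6 in endothelial cells (5.17%), 0 in fibroblasts (3.51%) and 1 for myeloid nuclei (19%), SBP against sham 0 for fibroblasts (0.762%) and 2 for myeloid nuclei (17.5%), and the differences 0 from fibroblasts (0%) and 1 from myeloid cells (7.76%). With only the 6 mice compared, the numbers were 0 in cardiomyocytes for I/R (0.535%) and 2 for SBP against sham (3.24%), 1 in endothelial cells for I/R (2.11%), and 1 (1.16%) and 2 (3.23%) for the differences from fibroblasts and myeloid cells. Types from marker scores gave 2 in endothelial cells for SBP against sham (1.63%), 5 in myeloid cells for I/R (13%) and 5 for SBP against sham (7.81%), and 1 (2.61%) and 0 (2.67%) for the differences. Without a filter the differences gave 1 (1.8%) and 0 (1.13%), and a pseudocount of 5 gave 9 (9.05%) for that from myeloid cells. Choices made after seeing the data gave 1 in endothelial cells without subclusters 2 and 6 for SBP against sham (1.0%), and in myeloid cluster 5 gave 1 for I/R (1.62%), 2 for SBP against sham (1.46%) and 0 for the difference (0.0115%).

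Leaving out each mouse gave, for I/R against sham, 0 to 3 in cardiomyocytes, 0 to 6 in endothelial cells, 1 to 6 for fibroblasts and 6 to 13 for myeloid cells, for SBP against sham 0 to 1, 0 to 5, 0 to 5 and 5 to 12, for SBP against I/R 0 throughout, and for the differences 0 from endothelial cells, 0 to 2 from fibroblasts and 0 to 4 from myeloid cells. Over the same fits the share of all genes called ran, for I/R against sham, from 0.173% to 6.28%, 0.715% to 5.11%, 6.06% to 13% and 11.2% to 17.7% in that order of types, for SBP against sham from 0% to 2.28%, 0.454% to 3.28%, 2.81% to 7.44% and 5.38% to 15.3%, for SBP against I/R up to 0.0931%, and for the differences up to 0.134%, 1.83% and 5.17%. Of 46 calls of members, 10 held without each mouse in turn, 4 of them those of myeloid Angptl4 and Ces1d, which entered the test only through the groups where they were high. No call of another member held under every alternative that tested it.

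Directions turned in the largest cluster for Ppara in cardiomyocytes (0.011 in I/R against sham, 0.17 in SBP against I/R, 0.18 in SBP against sham), Acadvl (3.18) and Hadh (0.36 in I/R, 0.36 in SBP) and Lpin1 (2.6 in SBP) in myeloid cells, Fabp4 in endothelial cells (0.18 in SBP against I/R), and the differences from myeloid cells of Fabp3 (−0.11) and Pdk4 (−0.39). The largest myeloid cluster, cluster 3, held 16, 47 and 22 nuclei in sham 1 to sham 3. Sham 1, with under 20, was left out there, so the myeloid values rest on few sham nuclei. Endothelial Lpl turned to 0.32 without subclusters 2 and 6, and cardiomyocyte Fabp3 in SBP against I/R to −0.004 with median-ratio scaling and −0.01 with 6 mice. Without single mice, cardiomyocyte values ranged across 0 for Acadm (−0.22 to 0.45 in I/R, −0.066 to 0.20 in SBP against I/R, −0.14 to 0.51 in SBP against sham), Cpt1b (−0.027 to 0.23, −0.087 to 0.415, −0.025 to 0.48), Ppargc1a (−0.24 to 0.35 in I/R, −0.01 to 0.59 in SBP against sham), Lpl (−0.049 to 0.23 in SBP against sham), and, in SBP against I/R, Cd36 (−0.47 to 0.16), Fabp3 (−0.10 to 0.15) and Ppara (−0.24 to 0.24), and endothelial values for Lpl (−0.31 to 0.16 in I/R) and Fabp4 (−0.14 to 0.11 in SBP against I/R). The cause was not tested. Few UMIs lie behind Cpt1b in cardiomyocytes (151) and Angptl4 in sham myeloid cells (4).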
